A study of Mus musculus with 36 samples.

Results

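Gene expression of cultured mouse lung pericyte-like cells was compared between 24 h and 6 h of exposure to bronchoalveolar lavage fluid (BALF, the fluid washed out of the airspaces) from uninjured lungs. Every library with that exposure in its labels was taken, 6 at 24 h and 6 at 6 h, which made 12 of the 36 libraries of the series. Each time had 3 female and 3 male libraries, so that sex entered as a balanced term. The cells had been expanded from lung digests, depleted of cells with surface CD31, CD45 or CD326 (markers of endothelium, leukocytes and epithelium), and selected for PDGFRβ, the platelet-derived growth factor receptor that pericytes share with fibroblasts. They then received reduced-serum medium mixed with an equal volume of uninjured BALF. In the other 24 libraries the same kind of cells received media only, with buffered saline in place of BALF, or injured BALF, for the same times. Serum, gelatin-coated plastic and selection on PDGFRβ were common to all groups. The labels give no strain, age or kind of injury, and do not say whether a group's libraries stem from separate mice or cultures. The p-values therefore measure only the spread between these samples, which may be technical.

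Pericytes wrap small vessels, and cells of this kind can pass into a contractile, matrix-forming state in culture. A stimulus to stromal cells is known to switch on immediate early transcription factors, cytokines and growth factors within hours, together with feedback inhibitors that shut the signal off. Among the controls of cell metabolism, the transcription factor NRF2 turns on antioxidant genes when cells meet oxidants, and SREBP2 turns on cholesterol synthesis when membranes hold little sterol.

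Total counts were 21509287 to 35991683 per library. Levels are given as CPM, the usual depth-scaled counts, after TMM scaling, whose factors lay between 0.915 and 1.07. Mitochondrial genes took 1.2 to 1.92% of the counts. Pdgfrb, the gene of the selection marker, stood at 392 to 612 CPM (median 483) at 6 h and 488 to 758 CPM (median 643) at 24 h. The times overlapped in it, and the change was 0.30 ± 0.16 in log2 units (edgeR adjusted p = 0.16). Of 14 pericyte markers 1 was at 0 in all 12 libraries. Their sum was 937.6 to 1455 CPM at 6 h and 1015 to 1565 CPM at 24 h, and that of the 11 lung fibroblast markers 391.7 to 683.7 CPM and 414.3 to 688.8 CPM. Some markers of the labelled cell type and of fibroblasts were thus present. Much of the pericyte sum was Pdgfrb, the selection marker, and Cd248, at 280 to 445 CPM at 6 h and 261 to 527 CPM at 24 h. Rgs5, a pericyte gene, reached only 14.4 CPM, Kcnj8 and Abcc9 reached only 0.48 and 0.33 CPM, and Higd1b was the marker at 0. The first principal component of the 12 libraries (34.3% of the variance) put all 6 h libraries at -45.9 to -19.7 and all 24 h libraries at 4.75 to 65.1. On the second component (19.9%), female 24 h library 1 (55.5) and female 6 h library 3 (45.1) were the highest and male 24 h library 3 (-38.6) was the lowest, with male 24 h library 2 (-30) near it. Male 6 h library 3 (21.1) lay away from male 6 h libraries 1 and 2 (-21.9 and -23.4). Male 24 h library 3 has a description number that begins differently from the other 11, and the descriptions of the female 24 h libraries give the hours differently from those of the male ones, while their duration labels give 24 h. Libraries numbered 1 and 2 lay close together in 3 of the 4 groups of sex and time, with a biological coefficient of variation of 8.27 to 11.5%, against 17.6 to 25% between either of them and number 3. In female cells at 24 h numbers 2 and 3 were the closest, at 15.7%. Counts are therefore also given with libraries 1 and 2 summed, and without the 3 libraries at the ends of the second component. A further setting left out the 3 libraries farthest from the other libraries of their own group, female 6 h library 3, male 6 h library 3 and female 24 h library 1.

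Between 6 and 24 h the cells lost transcripts of cytokines, epidermal growth factor ligands and antioxidant enzymes, and gained transcripts of cholesterol synthesis and the hypoxia response. Of 15901 genes tested, 4864 (30.6%) passed an adjusted p of 0.05, the threshold for a call throughout. Those higher at 24 h numbered 2407 (15.1%) and those lower 2457 (15.5%). Among the called genes the estimated change was at least 2-fold for 668 higher and 383 lower ones, and was not tested against 2-fold. The median log2 fold change of all genes was 0.023. Counts of list members given below stand beside these shares of all genes. In media 3.5% of all genes rose and 3.33% fell. The change in BALF was higher than in media for 0.704% of all genes and lower for 1.28%. With upper-quartile scaling the call count was 4996 and its split 3101 higher to 1895 lower, against 49.5% higher with TMM and 62.1% higher with that scaling. With libraries 1 and 2 summed 3275 genes were called, 3198 of them among the 4864, and without the 3 libraries at the ends of the second component 2914 were, 2822 of them shared. Without the 3 farthest from their own group 3481 were called, 3203 of them shared. The difference between the changes in BALF and in media passed for only 3 genes with libraries 1 and 2 summed. Counts of such differences in the lists below carry this limit.

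Among genes of at least 2 average log2 CPM the largest fall was that of Il11, an IL-6-type cytokine made by stromal cells. It stood at 38.7 to 126 CPM (median 80.2) at 6 h and 1.801 to 11.5 CPM (median 4.11) at 24 h, a log2 change of -4.13 ± 0.42 (edgeR adjusted p = 7.5e-08). All 24 h libraries lay below all 6 h libraries, the highest of them, 11.5 CPM, being male library 2. Nr4a3, an orphan nuclear receptor induced early by many stimuli, went from a median of 75.99 CPM (12.9 to 101) to 4.13 CPM (1.53 to 12.9), by -3.77 ± 0.54 (edgeR adjusted p = 8.8e-06). At 6 h its 2 libraries numbered 3 held 12.9 and 17.4 CPM and the other 4 held 63.2 to 101 CPM, so that the groups only just separated. Serpinb2, an inhibitor of plasminogen activators, changed by -3.38 ± 0.49, from 83.4 to 4.39 CPM (medians), and by -4.30 without female 24 h library 2. Pkp1, a desmosome protein, Nmnat2, which makes NAD, and Olr1, a scavenger receptor for oxidised lipoprotein, showed changes of -2.95 ± 0.53, -2.86 ± 0.28 and -2.77 ± 0.37. Sema7a, a membrane-anchored semaphorin, changed by -2.79 ± 0.54, with an overlap of the highest 24 h library (65.7 CPM) and the lowest 6 h library (65.6 CPM). Procr, the endothelial protein C receptor, went from a median of 254 CPM (183 to 297) to 43.99 CPM (20.5 to 74.02), by -2.43 ± 0.39. The other falls among the 12 largest at that level, those of Hmox1, Slc7a11, Hbegf and Aldh1a3, are described with their gene groups.

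Rarb, a retinoic acid receptor, had the largest rise among genes of at least 2 average log2 CPM, followed by Dhrs3 and Rspo2, and all 3 are described with the retinoic acid and Wnt genes. Bnip3 belongs to the hypoxia genes. A530020G20Rik, a transcript with no assigned function, rose by 2.66 ± 0.47 (edgeR adjusted p = 9.5e-05) and Cfap100, a cilium and flagellum protein, by 2.34 ± 0.43, without overlap of the times. Frmd5, a membrane-linker protein, rose by 2.17 ± 0.43, and by 1.43 without female 24 h library 1, which held 25.5 CPM where the other 24 h libraries held 3.05 to 5.29 CPM. Without that library 4 other rises were smaller and lost their call. Aldh1l1, a folate enzyme, Igsf10, Rnf144a and Tspan11 rose by 2.28 ± 0.61, 2.58 ± 0.71, 2.29 ± 0.81 and 2.68 ± 0.85, and without it by 1.21, 1.90, 0.85 and 1.70, at adjusted p values of 0.10, 0.054, 0.46 and 0.16 (edgeR), which did not pass. Rnf144a also lost its call without any 1 of 5 other libraries, and Tspan11 without female 6 h library 1 or male 24 h library 3. In Igsf10 and Tspan11 male 24 h library 3 was the highest, at 39.22 and 35.64 CPM. Female 24 h library 1 held 23.05 and 18.94 CPM of them. Steap4, a metalloreductase, rose by 2.13 ± 0.59, by 3.61 in female and 0.65 in male cells, with female 24 h libraries 1 and 2 at 16.4 and 17.4 CPM and the other 4 at 0.653 to 1.76 CPM. Rnf144a, Steap4 and Tspan11 had adjusted p values of 0.15, 0.091 and 0.1 with libraries 1 and 2 summed (edgeR).

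**Figure D1:**
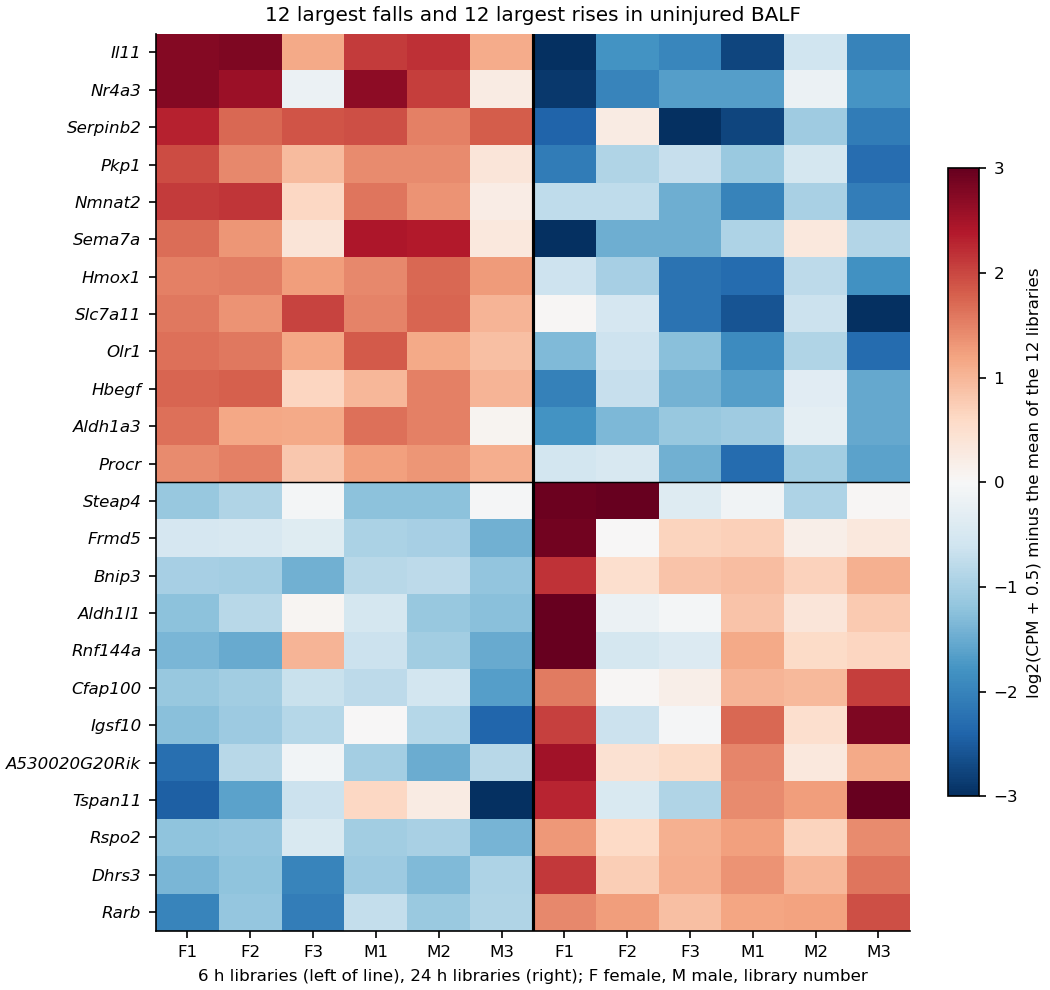
The 12 genes of largest fall (upper rows) and 12 of largest rise (lower rows), of at least 2 average log2 CPM, in each library, as log2(CPM + 0.5) minus the mean of the 12 libraries, with 6 h libraries left and 24 h libraries right of the line. The falls are shared by most 24 h libraries, while Aldh1l1, Rnf144a and Frmd5 are highest in female 24 h library 1 (F1).

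Most of the measured inflammatory cytokine genes fell. Of 13 measured members (of 15 listed), 8 fell, 1 rose and 4 did not pass, and the list median was -1.28 against 0.023 for all genes. Clcf1, a partner cytokine of the CNTF receptor, went from a median of 80.1 CPM (63.4 to 94.9) to 23.4 CPM (16.4 to 30.98), a change of -1.76 ± 0.16 (edgeR adjusted p = 1.1e-08), with no overlap of the times. Tslp, an alarmin that acts on dendritic cells, changed by -1.58 ± 0.26 from 4.43 to 1.796 CPM (medians). Ptgs2, the inducible cyclooxygenase that starts prostaglandin synthesis, stood at 1918 to 3542 CPM (median 2839) at 6 h and 302 to 1378 CPM (median 570) at 24 h, a change of -1.94 ± 0.44. Il6 changed by -1.37 ± 0.41 with overlapping times (39.1 to 160 against 16.7 to 106 CPM), and its adjusted p was 0.051 without male 6 h library 2 and 0.066 with libraries 1 and 2 summed (edgeR). Il33, an alarmin, and Lif, of the IL-6 family, were named after their values were seen, at -1.51 ± 0.45 and -1.28 ± 0.40. Il33 had an adjusted p of 0.056 with libraries 1 and 2 summed, and Lif lost its call without any 1 of 5 libraries (highest 0.058, edgeR) and stood at -1.89 without female 24 h library 2. In media Il33 rose, by 1.66 ± 0.48. The riser was Il18, at 0.0894 to 0.9604 CPM over all 12 libraries, which lost its call without any 1 of 8 of them. In media 3 members fell and 1 rose, and the change differed between uninjured BALF and media for 3, all more downward in BALF. The list had 5 falls after libraries 1 and 2 were summed.

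Several genes of the MAP kinase pathway that switch it off, and several ligands of the epidermal growth factor receptor that switch it on, were lower at 24 h. Of 17 feedback genes 8 fell and 1 rose (median -0.56), and 5 fell with libraries 1 and 2 summed. Dusp10, Dusp4 and Dusp5, phosphatases that remove the activating phosphates of MAP kinases, changed by -1.47 ± 0.23, -1.74 ± 0.32 and -2.08 ± 0.49 (edgeR adjusted p = 2.3e-05, 0.00021 and 0.0021). In all 3 the 24 h libraries lay below the 6 h libraries, Dusp4 at 45.7 to 118 against 213 to 319 CPM. Etv5, a transcription factor that reports on ERK activity, changed by -0.60 ± 0.12. Errfi1, which inhibits the epidermal growth factor receptor, changed by -1.32 ± 0.34. Its 6 h libraries numbered 3 held 99.02 and 103 CPM, within the 74.7 to 191 CPM of 24 h, and it had an adjusted p of 0.1 with libraries 1 and 2 summed (edgeR). Among the ligands, Hbegf stood at 104 to 231 CPM (median 163) at 6 h and 15.9 to 52.3 CPM (median 23.5) at 24 h, a change of -2.52 ± 0.32 (edgeR adjusted p = 1.6e-06). Btc, betacellulin, went from a median of 20.4 CPM (14.6 to 24.8) to 4.83 CPM (2.13 to 8.82), by -2.01 ± 0.27. Ereg, epiregulin, was named after its values were seen and went from a median of 372 CPM (306 to 461) to 48.7 CPM (35.6 to 162), by -2.18 ± 0.39. In these 3 ligands the times did not overlap. Nrg1, neuregulin, a ligand of the related ERBB receptors, rose by 0.82 ± 0.14, from 10.5 to 18.8 CPM (medians).

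Hbegf, Btc, Ereg and Nrg1 are part of a list of 25 growth factors for vessel and epithelium, of which 11 fell, 6 rose and 8 did not pass (median -0.32). Fgf2, a fibroblast growth factor, and Vegfa, the main growth factor of endothelium, were named after their values were seen, at -1.09 ± 0.20 and -0.78 ± 0.20. Vegfa overlapped between the times (211 to 468 and 161 to 323 CPM) and had an adjusted p of 0.071 with libraries 1 and 2 summed (edgeR). Vegfb, another member of that family, rose by 0.69 ± 0.11, and it rose in media too, by 0.75 ± 0.10. Angptl4, an inhibitor of lipoprotein lipase, changed by -0.76 ± 0.19, with an adjusted p of 0.058 with libraries 1 and 2 summed (edgeR). With those libraries summed the list had 6 falls and 4 rises.

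Of 22 immediate early transcription factors 6 fell (27.3%, beside 15.5% of all genes) and 3 rose (13.6%, beside 15.1%), with a median of -0.30. Beside Nr4a3, its relative Nr4a2 fell, as did Fosl1, a subunit of AP-1, and Maff, a small MAF factor, with changes of -1.31 ± 0.22, -1.83 ± 0.33 and -0.85 ± 0.10 (edgeR adjusted p = 6.3e-05, 0.00016 and 1e-06). In each of them the 24 h libraries lay below the 6 h libraries. Fos itself was higher at 24 h, by 1.76 ± 0.65 (3.12 to 9.72 against 4.59 to 68.1 CPM; edgeR adjusted p = 0.04). It lost the call without any 1 of 8 libraries, the change was 1.03 without female 24 h library 2, and the adjusted p was 0.19 with libraries 1 and 2 summed (edgeR). That sum left 1 rise in the list.

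**Figure D2:**
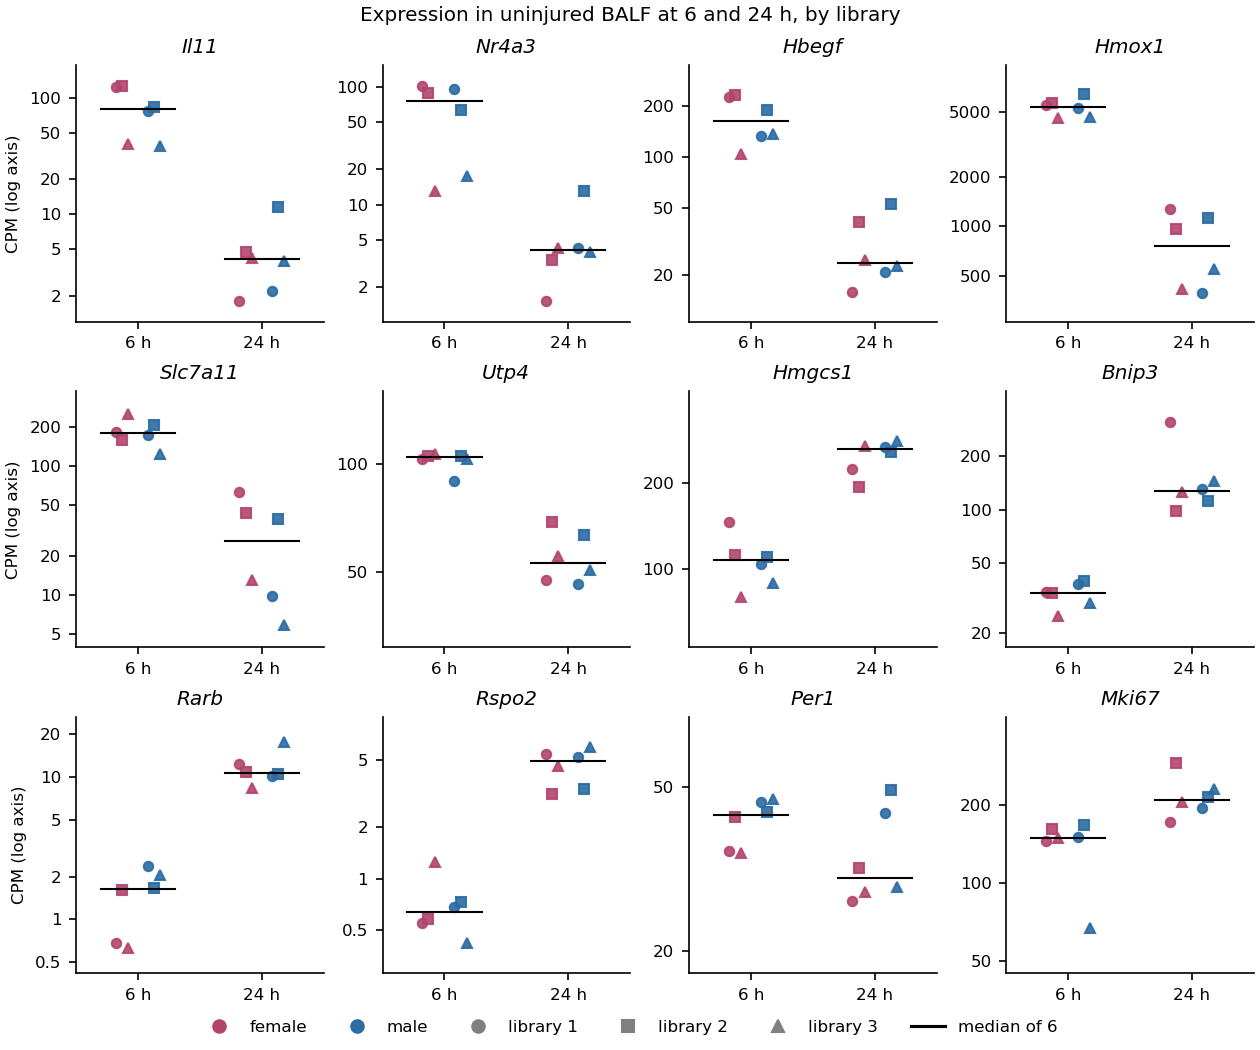
CPM (log axis) of 12 genes named in the text in each of the 12 libraries of uninjured BALF, by time, sex (colour) and library number (symbol), with the median of the 6 libraries of a time as a line. In Il11, Hbegf, Hmox1, Slc7a11, Utp4, Hmgcs1, Bnip3, Rarb and Rspo2 the 2 times are clearly apart, and in Per1 they overlap.

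NF-kB is the transcription factor family behind much inflammatory gene expression, and its subunits and inhibitors are among its own targets. Of 17 such genes 6 fell (35.3%, beside 15.5% of all genes) and 1 rose (5.88%, beside 15.1%), with a median of -0.26. Relb and Nfkb2, the subunits of its slower branch, went from a median of 22.9 CPM (20.4 to 32.7) to 13.6 CPM (12.03 to 14.2) and from a median of 103 CPM (89.6 to 135) to 61.7 CPM (52.01 to 78.1), changes of -0.86 ± 0.13 and -0.78 ± 0.10 (edgeR adjusted p = 2.1e-05 and 2.2e-06). The times did not overlap in either. Nfkb1 and the inhibitor Nfkbib changed by -0.84 ± 0.14 and -0.63 ± 0.10. Nfkbia, the inhibitor that closes the feedback loop, changed by -0.73 ± 0.17, with female 6 h library 3 at 80.6 CPM, the other 6 h libraries at 37.8 to 46.8 CPM and the 24 h libraries at 18.5 to 48.6 CPM. In media 0 fell and 1 rose, and for 4 members, Nfkb1, Nfkb2, Relb and Nfkbib, the change in uninjured BALF was lower than in media.

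Of 18 measured chemokines and colony-stimulating factors (of 19 listed) 3 fell, a share of 16.7% near the 15.5% of all genes, and 0 rose (median -0.41). Ccl9, a chemokine that the list does not hold, rose by 1.26 (edgeR adjusted p = 0.00079). Csf1, which macrophages need to survive, stood at 3586 to 3976 CPM (median 3766) at 6 h and 1595 to 2816 CPM (median 2149) at 24 h, a change of -0.79 ± 0.17 (edgeR adjusted p = 0.0009). Cxcl2 and Cxcl3, which draw neutrophils, were near the detection limit, with 244 and 439 counts over the 6 h libraries and 86 and 122 over the 24 h libraries, and changed by -2.18 ± 0.55 and -2.33 ± 0.63. Female 24 h library 2 held 2.74 and 4.04 CPM of them and the other 24 h libraries at most 0.363 and 0.544 CPM. Without male 24 h library 2 the change of Cxcl2 was -3.50, and without female 24 h library 2 that of Cxcl3 was -3.82. Ccl2, which draws monocytes, did not pass, at -0.94 ± 0.37 (116 to 672 and 32.9 to 421 CPM; edgeR adjusted p = 0.052), and neither did Cxcl1, at -0.14 ± 0.70 (adjusted p = 0.91), whose value turned to 0.78 without female 6 h library 3.

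More targets of NRF2 fell than rose. Of 26 targets 12 fell, 3 rose and 11 did not pass, with a median of -0.64. The list median was -0.24 in female and -0.98 in male cells, though the difference between the sexes passed for 0 genes (edgeR). Hmox1, heme oxygenase, which breaks down heme, stood at 4617 to 6466 CPM (median 5401) at 6 h and 392 to 1273 CPM (median 760.1) at 24 h, a change of -2.78 ± 0.33 (edgeR adjusted p = 7.2e-07). Every 24 h library was far below every 6 h library. Srxn1, sulfiredoxin, and Txnrd1, thioredoxin reductase, which keep peroxiredoxins and thioredoxin working, went from a median of 779 CPM (717 to 1013) to 161 CPM (104 to 261) and from a median of 1582 CPM (1405 to 1738) to 384 CPM (328 to 599), by -2.28 ± 0.33 and -1.87 ± 0.21. Slc7a11, the cystine importer that feeds glutathione synthesis, changed by -2.77 ± 0.61, and its 24 h libraries were wide apart, at 5.899 to 63.2 CPM against 125 to 254 CPM at 6 h, and the change was -3.37 without male 24 h library 2. Gclm and Gclc, the subunits of the rate-limiting enzyme of glutathione synthesis, were named after their values were seen and changed by -1.56 ± 0.29 and -1.18 ± 0.25. Abcc1, which exports glutathione conjugates, changed by -0.78 ± 0.12. In media 2 members fell and 1 rose. For 4 members the change in BALF was lower than in media, among them Hmox1 (-1.89 ± 0.44, edgeR adjusted p = 0.023) and Srxn1 (-1.90 ± 0.45).

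In the promoters of these targets the antioxidant response letters were looked for. In RefSeq's promoter table (GRCm38.p6, the 250 bases before each start, both strands), 21 of the 26 genes matched with 28 promoters. TGACNNNGC was in 6 of them (21.4%), against 10.2% of all 32851 promoters, and the wider TGANNNNGC in 13 (46.4%), against 35.2%. The Gclm promoter is shown as an example with a match to the narrower form, in capitals and on the opposite strand; it begins 134 bases before the start.
Gclm promoter, chr3:122245307-122245556, plus strand: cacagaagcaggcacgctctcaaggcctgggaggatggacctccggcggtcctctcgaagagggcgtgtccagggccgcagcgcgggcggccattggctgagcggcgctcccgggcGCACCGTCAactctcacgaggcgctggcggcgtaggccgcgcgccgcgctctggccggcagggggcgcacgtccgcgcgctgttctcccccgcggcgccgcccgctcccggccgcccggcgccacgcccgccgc
A match is a description of letters, and no value here bears on binding. Of 8 measured metallothionein and zinc genes (of 9 listed), which respond to metals as well as to oxidants, 2 fell and 0 rose (median -0.04). The share that fell was 25%, beside 15.5% of all genes. The 2 genes were Slc30a1, a zinc exporter, and Mtf1, the metal-sensing transcription factor, at -0.83 ± 0.15 and -0.62 ± 0.14. Mt2, a metallothionein, did not pass, at 0.02 ± 0.25 (edgeR adjusted p = 0.97), with the 24 h libraries at 52.7 to 214 CPM around the 67.9 to 127 CPM of 6 h.

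Ribosome biogenesis genes, which make and assemble ribosomal RNA and are known to follow growth signals, all fell. Each of the 29 measured members (of 30 listed) was lower at 24 h and passed the test, against 15.5% of all genes, and the changes ran from -1.12 to -0.30 with a median of -0.75. Polr1b, a subunit of RNA polymerase I, went from a median of 44.3 CPM (38.4 to 53.5) to 19.7 CPM (15.5 to 26.5), by -1.12 ± 0.11 (edgeR adjusted p = 2e-08). Utp4, a processome protein, stood at 89.4 to 107 CPM (median 104) at 6 h and 46.1 to 68.8 CPM (median 53.01) at 24 h, a change of -0.89 ± 0.10. Rrs1 and Nob1, assembly factors of the large and the small subunit, changed by -0.82 ± 0.09 and -0.72 ± 0.08, and the times did not overlap in any of these 4 genes. Nop56, a box C/D core protein, and Npm1, nucleophosmin, were named after their values were seen, at -0.99 ± 0.13 and -0.38 ± 0.11, the latter with an adjusted p of 0.11 without the 3 libraries at the ends of the second component (edgeR). With libraries 1 and 2 summed 28 of the 29 fell, and without the 3 libraries at the ends of the second component 26 did. In media 20 fell, where 3.33% of all genes did, and for 2 members, Polr1b and Utp4, the change in BALF was lower than in media. The E-box CACGTG, a letter group that MYC and other factors bind, was in 1 of 28 promoters of 25 matched genes (3.57%), against 6.02% of all promoters.

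Chaperones of the cytosol declined moderately. Of 20 cytosolic heat shock genes 12 fell and 0 rose (median -0.32), 10 fell and 1 rose with upper-quartile scaling, and 8 fell without the 3 libraries at the ends of the second component. Hspa8, the constitutive HSP70, stood at 1723 to 2628 CPM (median 2192) at 6 h and 1324 to 1535 CPM (median 1404) at 24 h, a change of -0.64 ± 0.11 (edgeR adjusted p = 0.00013). Hspb8, a small heat shock protein, and Dnajb1, an HSP40 co-chaperone, changed by -0.69 ± 0.08 and -0.55 ± 0.10, and Hspd1, the mitochondrial chaperonin that this list also holds, by -0.49 ± 0.09. The times were apart in all 4. Of 22 chaperones of the endoplasmic reticulum 5 fell and 0 rose (median -0.07), a share of 22.7% beside 15.5% of all genes, but 3 fell without male 24 h library 3 alone, with libraries 1 and 2 summed or with upper-quartile scaling. Dnajb9, Hyou1 and Creld2 changed by -0.88 ± 0.18, -0.45 ± 0.08 and -0.42 ± 0.09. Hspa5, BiP, changed by -0.35 ± 0.12, which lost its call without any 1 of 5 libraries (highest edgeR adjusted p = 0.14).

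**Figure D3:**
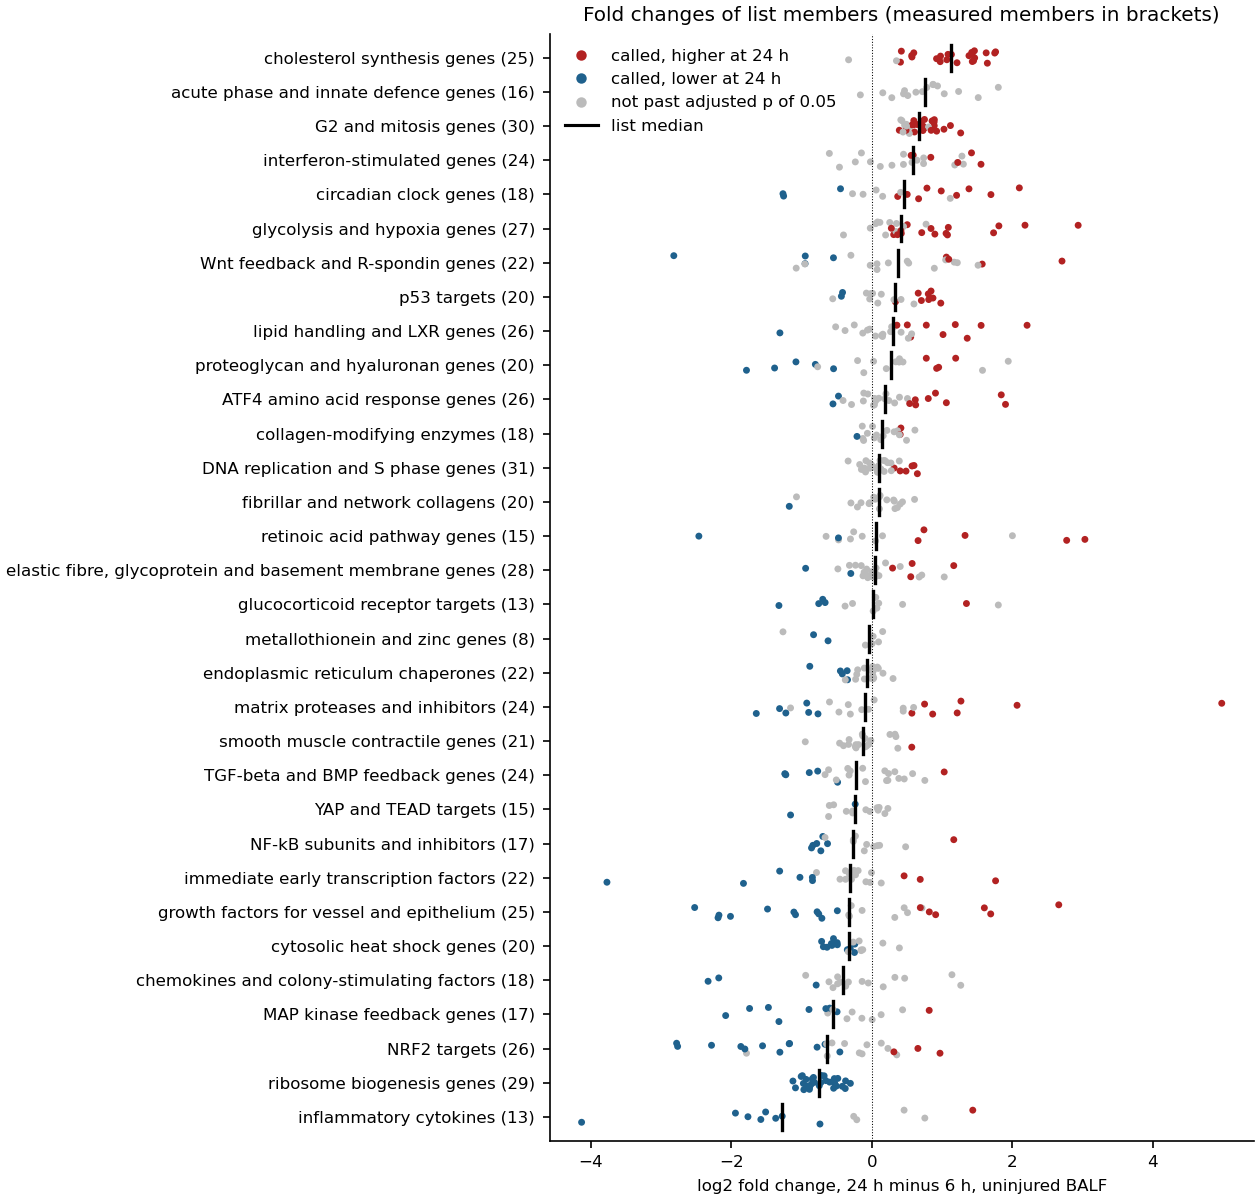
Log2 fold change from 6 to 24 h in uninjured BALF of each measured member of the 32 gene lists (number measured in brackets), coloured by call, with the list median as a bar; lists are ordered by median. Ribosome biogenesis genes lie wholly left of 0 and G2 and mitosis genes wholly right of it, while the growth factor and protease lists spread to both sides.

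Cholesterol synthesis genes rose almost as a block. Of 25 members 23 rose, 0 fell and 2 did not pass, where 15.1% of all genes rose, and the median was 1.14. Nsdhl, a sterol dehydrogenase, went from a median of 23.9 CPM (21.9 to 26.4) to 75.9 CPM (54.8 to 93.7), by 1.65 ± 0.13 (edgeR adjusted p = 1e-09). Fdft1, the squalene synthase of the pathway, rose by 1.39 ± 0.11, and Insig1, which holds SREBP back when sterol is plentiful, by 1.43 ± 0.12. Hmgcs1, the synthase that opens the pathway to mevalonate, stood at 79.7 to 147 CPM (median 107) at 6 h and 194 to 280.3 CPM (median 263) at 24 h, a rise of 1.21 ± 0.13 (edgeR adjusted p = 1.6e-07). In each of these 4 the lowest 24 h library lay above the highest 6 h library. Pmvk, phosphomevalonate kinase, did not pass, at -0.33 ± 0.22 (11.01 to 37.5 and 17.7 to 25.3 CPM), though it fell by 0.71 without the 3 libraries farthest from their own group (edgeR adjusted p = 0.0037). The count was also 23 with libraries 1 and 2 summed and was 22 without the 3 libraries at the ends of the second component. In media 8 rose and 0 fell, with a median of 0.35, and for 15 members the rise in BALF exceeded that in media, where 0.704% of all genes did so. With libraries 1 and 2 summed, only 1 gene of all tested had a change called higher in BALF than in media.

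Of the 25 genes 17 matched RefSeq promoters, 20 in number. The CCAAT letters, which NF-Y binds and which often stand beside sterol elements, were in 16 of the 20 (80.0%), against 33.8% of all promoters. TCACNCCAC, a form of the sterol regulatory element added after the data were examined, was in 1 of 20 (5.0%), against 1.05%. That promoter is of Hmgcs1, shown with the sterol element (137 bases before the start) and 3 CCAAT matches on the opposite strand in capitals.
Hmgcs1 promoter, chr13:119690101-119690350, plus strand: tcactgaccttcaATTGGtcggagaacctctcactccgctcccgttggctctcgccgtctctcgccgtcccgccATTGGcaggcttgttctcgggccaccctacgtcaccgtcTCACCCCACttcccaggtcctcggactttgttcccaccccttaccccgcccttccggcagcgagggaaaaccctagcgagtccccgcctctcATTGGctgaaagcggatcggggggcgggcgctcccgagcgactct
Lipid handling and LXR genes rose in part, 9 of 26 measured members (of 27 listed) rising and 1 falling (median 0.30). Fads2, Fads1 and Scd2, desaturases that SREBP1 controls, rose by 1.36 ± 0.12, 1.02 ± 0.10 and 1.56 ± 0.16 (edgeR adjusted p = 1.2e-08, 5.2e-08 and 5.5e-08). Scd2 stood at 238 to 388 CPM (median 306) at 6 h and 685 to 1425 CPM (median 853) at 24 h, female 24 h library 1 being the highest. The gene that fell was Dgat1, which makes triglyceride, from a median of 57.01 CPM (32.04 to 62.9) to 20.7 CPM (16.9 to 25.8), by -1.31 ± 0.15, with no overlap.

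Genes of the hypoxia response and of glycolysis were higher at 24 h. Of 27 members 16 rose and 0 fell, with a median of 0.42. Bnip3, a mitophagy receptor and a known HIF target, stood at 25.01 to 39.6 CPM (median 33.9) at 6 h and 97.6 to 311 CPM (median 128) at 24 h, a rise of 2.18 ± 0.26 (edgeR adjusted p = 8.4e-07). Female 24 h library 1 held the 311 CPM, and the next highest library 144 CPM, still above all 6 h libraries. Ankrd37, also a HIF target, went from a median of 1.26 CPM (0.848 to 3.03) to 4.76 CPM (4.04 to 6.09), by 1.81 ± 0.24, by 2.41 in female and 1.21 in male cells. Pfkfb3, which makes the activator of phosphofructokinase, and Egln1, the prolyl hydroxylase that marks HIF for decay, rose by 1.06 ± 0.14 and 0.84 ± 0.13. These 4 did not overlap between the times. Without the 3 libraries at the ends of the second component, female 24 h library 1 among them, 9 members rose, and 10 without the 3 farthest from their own group. In media 3 rose, and in 2 the rise in BALF was larger than in media, Bnip3 (1.79 ± 0.36) and Ankrd37 (2.03 ± 0.33, edgeR adjusted p = 0.001), while in 1 it was smaller.

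ACGTG, the core letters of the hypoxia response element, was searched after the data were examined. It was in 17 of 36 promoters (47.2%) of the 26 matched members, against 16.6% of all promoters. It lies within the E-box CACGTG, which reads as ACGTG on either strand, and this is the form in the Bnip3 promoter, 108 bases before the start.
Bnip3 promoter, chr7:138909507-138909756, minus strand: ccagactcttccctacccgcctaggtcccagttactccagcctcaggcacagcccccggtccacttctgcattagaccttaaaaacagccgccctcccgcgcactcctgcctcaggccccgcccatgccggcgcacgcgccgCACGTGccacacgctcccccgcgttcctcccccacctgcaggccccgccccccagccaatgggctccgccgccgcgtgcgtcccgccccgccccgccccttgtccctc
Of 26 genes of the amino acid response of ATF4, 8 rose (30.8%, beside 15.1% of all genes) and 2 fell (7.69%, beside 15.5%), with a median of 0.19. Ddit4, an inhibitor of mTORC1 also known as a hypoxia target, rose by 1.85 ± 0.31, with 198 CPM in female 24 h library 1 and 58.3 to 73.0 CPM in the other 24 h libraries, against at most 34.4 CPM at 6 h. Chac1, which degrades glutathione, and Sesn2, a leucine sensor, rose by 1.06 ± 0.19 and 0.81 ± 0.13, without overlap. Phgdh, the enzyme that opens serine synthesis and a known ATF4 target too, fell, from a median of 293 CPM (274 to 301) to 195 CPM (174 to 235), by 0.55.

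Genes of G2 and mitosis were higher at 24 h. Of 30 members 21 rose and 0 fell, with changes of 0.39 to 1.27 and a median of 0.68. Nusap1 and Ect2, proteins of the spindle and of cytokinesis, went from a median of 14.96 CPM (5.28 to 19.4) to 30.2 CPM (23.7 to 38.8) and from a median of 31.2 CPM (11.9 to 34.9) to 53.1 CPM (41.03 to 62.6), by 1.12 ± 0.23 and 0.89 ± 0.20 (edgeR adjusted p = 0.00048 and 0.0014). Bub1, a checkpoint kinase, and Hmmr, a spindle protein that also binds hyaluronan, rose by 0.89 ± 0.21 and 0.92 ± 0.23. Mki67, the proliferation marker Ki-67, stood at 66.98 to 167 CPM (median 149) at 6 h and 172 to 291 CPM (median 209) at 24 h, a rise of 0.65 ± 0.21 (edgeR adjusted p = 0.018). In these 5 all 24 h libraries were above all 6 h libraries, though all but Mki67 were named for a low p, which favours such a gap. Male 6 h library 3 was the lowest in them, with 66.98 CPM of Mki67 where the other 6 h libraries held at least 144. Male 6 h library 3 also held 255.2 CPM of mesothelial markers and 218 CPM of endothelial markers, whose part in the result was not tested. The count of risers was 14 without male 24 h library 3, 11 with libraries 1 and 2 summed and 6 without the 3 libraries at the ends of the second component, and 8 without the 3 farthest from their own group. Mki67 had an adjusted p of 0.065 with libraries 1 and 2 summed and lost its call without male 6 h library 3 or female 24 h library 2 (highest 0.059, edgeR). In media 0 of the 30 passed in either direction, and the difference between BALF and media passed for 0 of 30.

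The promoters of mitotic genes are known for the CHR letters, TTTGAA or TTTAAA, and for CCAAT boxes. The 25 members of the list that matched had 27 promoters, of which 11 (40.7%) held TTTGAA, 6 (22.2%) TTTAAA and 22 (81.5%) CCAAT, against 16.0%, 12.1% and 33.8% of all promoters. The Ccnb2 promoter, of the mitotic cyclin that had the largest rise in the list (1.27 ± 0.32, chosen after its values were seen; edgeR adjusted p = 0.093 without the 3 libraries at the ends of the second component), is shown with TTTGAA, 167 bases before the start, and 3 CCAAT matches in capitals.
Ccnb2 promoter, chr9:70421555-70421804, minus strand: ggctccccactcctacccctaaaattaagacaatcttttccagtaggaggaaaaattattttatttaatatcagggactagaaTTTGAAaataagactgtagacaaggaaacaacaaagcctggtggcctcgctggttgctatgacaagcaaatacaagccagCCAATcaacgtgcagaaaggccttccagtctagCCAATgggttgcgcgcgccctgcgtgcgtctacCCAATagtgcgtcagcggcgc
Genes of DNA replication moved less, 6 of 31 rising and 0 falling (19.4%, beside 15.1% of all genes), and 3 with libraries 1 and 2 summed or without male 24 h library 3. E2f1, the transcription factor of S phase entry, Lig1, a DNA ligase, and Pola1, of DNA polymerase alpha, rose by 0.32 ± 0.07, 0.65 ± 0.15 and 0.49 ± 0.13, while Rfc4, a clamp loader subunit, at 0.60 ± 0.20, lost its call without any 1 of 4 libraries and had an adjusted p of 0.059 with the summed libraries (edgeR). Among 20 p53 targets 8 rose (40%) and 2 fell (10%, beside 15.5% of all genes), with a median of 0.33. Bbc3, the death factor PUMA, Trp53inp1 and Ckap2, a spindle protein, rose by 0.87 ± 0.18, 0.84 ± 0.18 and 0.98 ± 0.21, whereas Cdkn1a, the cell cycle inhibitor p21, did not pass, at -0.08 ± 0.08 (edgeR adjusted p = 0.53; 383 to 507 and 402 to 478 CPM).

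Retinoic acid genes held the 2 largest rises among genes of at least 2 average log2 CPM. Rarb stood at 0.627 to 2.37 CPM (median 1.63) at 6 h and 8.32 to 17.6 CPM (median 10.6) at 24 h, a change of 3.04 ± 0.33 (edgeR adjusted p = 2e-07), with the lowest 24 h library well above the highest 6 h library. Dhrs3, which turns retinal back into retinol and is itself induced by retinoic acid, went from a median of 6.26 CPM (3.65 to 8.14) to 37.5 CPM (26.6 to 70.6), by 2.78 ± 0.33. Rarg, a further receptor, rose by 0.74 ± 0.14, and Cyp26b1, which degrades retinoic acid, by 1.33 ± 0.43, the latter named after its values were seen and with an adjusted p of 0.15 with libraries 1 and 2 summed and 0.051 without female 6 h library 1 (edgeR). Aldh1a3, an enzyme that makes retinoic acid, fell, from a median of 93.9 CPM (38.7 to 117) to 15.2 CPM (10.3 to 29.6), by 2.46. In all, 5 of 15 measured members (of 17 listed) rose and 2 fell (median 0.06). These were 33.3% and 13.3%, beside 15.1% and 15.5% of all genes. With libraries 1 and 2 summed 3 rose and 1 fell. In media Rarb changed by 0.17 ± 0.30, and the difference between BALF and media was 2.87 ± 0.44 (edgeR adjusted p = 0.00076).

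A direct repeat of GTTCA with 6 letters between its copies, a form of the retinoic acid response element, was searched after the data were examined. It was in 2 of 24 promoters of the 12 matched genes (8.33%), those of Rarb and Cyp26a1, against 22 of 32851 (0.067%). The form was chosen with the rise of Rarb known, so these shares are a description and no support. In Rarb the repeat begins 52 bases before the start and is shown in capitals with the letters between the copies.
Rarb promoter, chr14:16575477-16575726, minus strand: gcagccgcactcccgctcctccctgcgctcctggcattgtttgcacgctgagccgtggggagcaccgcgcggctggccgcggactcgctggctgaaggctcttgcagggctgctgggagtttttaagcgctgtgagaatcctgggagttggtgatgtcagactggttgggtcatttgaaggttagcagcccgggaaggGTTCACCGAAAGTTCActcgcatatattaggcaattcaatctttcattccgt

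Of 22 measured Wnt genes (of 23 listed) 4 rose and 4 fell, 18.2% each way, near the 15.1% and 15.5% of all genes. Their median was 0.37, and 0.10 without male 24 h library 3. Rspo2, an R-spondin that strengthens Wnt signals at the receptor, stood at 0.416 to 1.25 CPM (median 0.632) at 6 h and 3.14 to 5.93 CPM (median 4.896) at 24 h, a rise of 2.71 ± 0.52 (edgeR adjusted p = 0.00024), with no overlap. Wnt2, a ligand of lung mesenchyme, fell, from a median of 5.496 CPM (3.52 to 9.81) to 0.951 CPM (0.386 to 1.18), by 2.82, and fell in media too (-1.92 ± 0.49). Znrf3, which removes Wnt receptors and is itself opposed by R-spondins, and Tcf7, a transcription factor of the pathway, changed by -0.55 ± 0.10 and -0.95 ± 0.21.

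Of 24 TGF-β and BMP feedback genes 6 fell (25%, beside 15.5% of all genes) and 1 rose (4.17%, beside 15.1%), with a median of -0.22. In media 7 fell, where 3.33% of all genes did, and 1 rose. Tgfb1 itself, Id1, a BMP target, and Smad7, the inhibitory SMAD, changed by -1.23 ± 0.25, -1.24 ± 0.27 and -0.89 ± 0.25. Id1 overlapped between the times (32.3 to 89.02 and 17.1 to 32.4 CPM), and Smad7 had an adjusted p of 0.13 without the 3 libraries at the ends of the second component (edgeR). That setting left 3 falls in the list, as did leaving out the 3 farthest from their own group. Among 15 targets of YAP and TEAD, the effectors of the Hippo pathway, 2 fell and 0 rose (median -0.24), 13.3% beside the 15.5% of all genes that fell, Nuak2, a kinase, by 1.16 and Amotl1, an angiomotin, by 0.24 (adjusted p = 0.065 for Amotl1 without those 3 libraries, edgeR).

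The circadian clock is a loop in which ARNTL and CLOCK, bound to E-boxes, turn on their own repressors. Of 18 measured clock genes (of 19 listed) 9 rose (50%) and 3 fell (16.7%, near the 15.5% of all genes), with a median of 0.46. Arntl stood at 30.1 to 74.4 CPM (median 54.4) at 6 h and 14.3 to 27.4 CPM (median 22.6) at 24 h, a change of -1.26 ± 0.18 (edgeR adjusted p = 1e-05), and Cry1, a repressor, went from a median of 18.9 CPM (17.04 to 19.3) to 8.57 CPM (4.35 to 9.94), by -1.26 ± 0.13. Among outputs of the loop, Dbp and Per3, named after their values were seen, rose by 2.10 ± 0.38 and 1.39 ± 0.27. Npas2, which can stand in for CLOCK, and Rora, which activates Arntl, rose by 1.70 ± 0.26 and 0.79 ± 0.11. In these 6 genes the 2 times did not overlap, while Per1, a repressor, overlapped and did not pass, at -0.27 ± 0.15 (edgeR adjusted p = 0.17). The labels give no clock hour of collection. CACGTG was in 6 of 21 promoters (28.6%) of the 16 matched clock genes, against 6.02% of all promoters. In media 3 clock genes rose and 0 fell, and for 4 the change differed from that in BALF, lower in BALF for Arntl (-1.10 ± 0.26) and Cry1 (-0.91 ± 0.19) and higher for the other 2. Of 13 measured glucocorticoid receptor targets (of 14 listed) 1 rose (7.69%, beside 15.1% of all genes) and 4 fell (30.8%, beside 15.5%), with a median of 0.02. Cebpd, a C/EBP transcription factor, rose by 1.35 ± 0.25, and by 1.21 ± 0.25 in media, and Map3k6, a kinase, changed by -0.70 ± 0.12. With libraries 1 and 2 summed 1 of these targets fell.

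Interferon-stimulated genes rose in part, 6 of 24 measured members (of 25 listed) rising and 0 falling (median 0.58). The share that rose was 25%, beside 15.1% of all genes. With libraries 1 and 2 summed or without male 24 h library 3 it was 3 members. Stat2, a subunit of the interferon-activated transcription factor, and Gbp7, a guanylate-binding GTPase, rose by 1.23 ± 0.29 and 1.42 ± 0.35 without overlap (edgeR adjusted p = 0.0018 and 0.0031). Ifit2, which binds foreign RNA, rose by 0.56 ± 0.12, and Ddx58, the sensor RIG-I, by 0.59 ± 0.20, with an adjusted p of 0.22 with the summed libraries (edgeR). In media 3 rose as well, among them Stat2 at 1.08 ± 0.28, and the difference between BALF and media passed for 0 of 24. Of 16 measured acute phase and innate defence genes (of 17 listed) 0 passed in edgeR's test, though the list median was 0.75. In DESeq2, with other scalings and without the 3 libraries at the ends of the second component 1 rose, and 5 rose in the fit with the replicate number as a block. Lcn2, which binds bacterial iron carriers and was named after its values were seen, ranged from 0.181 to 16.6 CPM at 24 h, with 10.6 and 16.6 CPM in female libraries 1 and 2, and its change of 1.80 ± 0.77 did not pass (edgeR adjusted p = 0.078).

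Few collagen genes were called, and genes that break the matrix down or bind hyaluronan changed in both directions. Of 20 fibrillar and network collagens 1 fell (5%, beside 15.5% of all genes) and 0 rose (median 0.11). Col5a3 was that gene, from a median of 74.02 CPM (61.6 to 110.4) to 36.4 CPM (28.9 to 38.5), by -1.18 ± 0.16 (edgeR adjusted p = 2.7e-06), with no overlap. Col1a1, the main chain of type I collagen, stood at 7469.7 to 11357 CPM (median 8596) at 6 h and 6364 to 12280 CPM (median 9149) at 24 h, a change of 0.03 ± 0.20 (edgeR adjusted p = 0.93), with overlapping times. Of 18 collagen-modifying enzymes 2 rose (11.1%) and 1 fell (5.56%), shares below those of all genes. P4ha1, a prolyl hydroxylase, changed by 0.42 ± 0.12, Pcolce by 0.40 ± 0.15 and Plod3 by -0.21 ± 0.08. Pcolce and Plod3 lost their call without any 1 of 8 and of 7 libraries, and without the 3 libraries at the ends of the second component 0 of the 18 passed (P4ha1 at an adjusted p of 0.11, edgeR). Of 28 elastic fibre, glycoprotein and basement membrane genes 4 rose and 2 fell (median 0.04). These were 14.3% and 7.14%, beside 15.1% and 15.5% of all genes. In this list 0 rose without the 3 libraries at the ends of the second component. Tnc, tenascin C, changed by -0.94 ± 0.24, from 3896 to 2046 CPM (medians), and Mfap5, a microfibril protein, by -0.30 ± 0.09. Emilin1 and Mfap2 rose by 0.56 ± 0.18 and 1.17 ± 0.40, with adjusted p values of 0.23 and 0.22 without those libraries (edgeR). Emilin1 also lost its call without male 6 h library 3 or female 24 h library 1, and Mfap2 without any 1 of 6 libraries. Eln, elastin, did not pass, at -0.48 ± 0.68 (55.7 to 500.1 and 16.3 to 295 CPM; edgeR adjusted p = 0.63), and was -1.13 without female 24 h library 3.

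Adamts5 and Adamts1, proteases that cleave proteoglycans, rose by 2.07 ± 0.18 and 1.22 ± 0.16 (edgeR adjusted p = 4.4e-09 and 2.2e-06), Adamts5 from a median of 66.8 CPM (54.8 to 94.6) to 302 CPM (254 to 344), without overlap. Plaur, the urokinase receptor, and Timp1, a metalloproteinase inhibitor, changed by -1.65 ± 0.31 and -0.93 ± 0.18, also without overlap. They belong to a list of 24 measured proteases and inhibitors (of 25 listed), of which 7 rose and 6 fell (median -0.10). These were 29.2% and 25%, beside 15.1% and 15.5% of all genes. Without the 3 libraries at the ends of the second component 3 of the list rose and 5 fell. Its highest fold change, Adamts15 at 4.99 ± 1.37, rests on 8 counts over the 6 h libraries and on female 24 h library 1, without which it was 2.72 (edgeR adjusted p = 0.26). Of 20 proteoglycan and hyaluronan genes 4 rose (20%) and 5 fell (25%), with a median of 0.27, and 3 fell with libraries 1 and 2 summed. Cd44, the hyaluronan receptor, went from a median of 1203 CPM (862 to 1527) to 456 CPM (269 to 603), by -1.38 ± 0.23. The hyaluronidases Cemip and Cemip2 moved oppositely, by 0.95 ± 0.14 and -0.80 ± 0.10, and Hyal2 changed by -0.54 ± 0.09. In Cemip, Cemip2 and Hyal2 the times were apart.

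Contractile and pericyte genes were mostly not called. Of 21 smooth muscle contractile genes 1 rose and 0 fell (median -0.13), that being Synpo2 at 0.57 ± 0.19, which lost its call without any 1 of 3 libraries and had an adjusted p of 0.09 with libraries 1 and 2 summed (edgeR). Acta2, smooth muscle actin, stood at 5857 to 9733 CPM (median 8214) at 6 h and 3130.4 to 8454 CPM (median 6820.1) at 24 h and did not pass, at -0.33 ± 0.18 (edgeR adjusted p = 0.16). Of 12 measured pericyte markers (of 14 listed) 1 rose and 1 fell (median -0.02). Notch3, the receptor of vessel mural cells, rose by 1.16 ± 0.24, and by 1.38 ± 0.24 in media. Cspg4, the proteoglycan NG2, changed by -1.51 ± 0.37 with overlap (88.5 to 263 and 21.2 to 101 CPM) and an adjusted p of 0.063 with the summed libraries (edgeR). Of 9 measured lung fibroblast markers (of 11 listed) 0 passed (median 0.38).

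Markers of other cell types were present at low levels and varied with the library. The 11 endothelial markers summed to 35.47 to 218 CPM at 6 h and 10.43 to 151.9 CPM at 24 h, the 12 macrophage markers to 53.53 to 79.35 and 14.08 to 85.36 CPM, and the 8 mesothelial markers to 49.03 to 255.2 and 23.07 to 87.70 CPM. The lowest value of each at 24 h was that of male library 3, which had 6.18 CPM of Lyz2 and 1.12 CPM of Pecam1, against at least 35.3 and 5.80 CPM in the other 24 h libraries. In bulk RNA, fewer cells of a type and less RNA per cell cannot be told apart. None of the 11 endothelial or 8 mesothelial genes passed (0 in edgeR; DESeq2 called 1 lower in each), and 1 macrophage gene of 12 fell, Csf1r, the receptor of CSF1, from a median of 15.1 CPM (13.9 to 17.2) to 7.35 CPM (4.57 to 10.3), by -1.02 ± 0.21 (edgeR adjusted p = 0.0004). It fell in media too, by -0.97 ± 0.21. Neutrophil markers reached 4.85 CPM in sum, with 3 of 8 at 0 in all 12 libraries, and of 3 measured Mmp8 rose by 1.27 ± 0.33, to at most 3.63 CPM, with an adjusted p of 0.092 without the 3 libraries at the ends of the second component (edgeR). Lymphocyte markers reached 0.472 CPM in sum with Cd3e at 0, and erythroid markers 0.1845 CPM, and no gene of either list passed the count filter. Epithelial markers summed to at most 1.31 CPM. Of the 3 measured, Scgb1a1, the club cell secretoglobin, and Foxj1, of ciliated cells, rose from 4 and 7 counts over the 6 h libraries to 57 and 36 over the 24 h libraries, and Foxj1 lost its call without any 1 of 6 libraries. The part of these cell types in the other results was not tested.

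**Figure D4:**
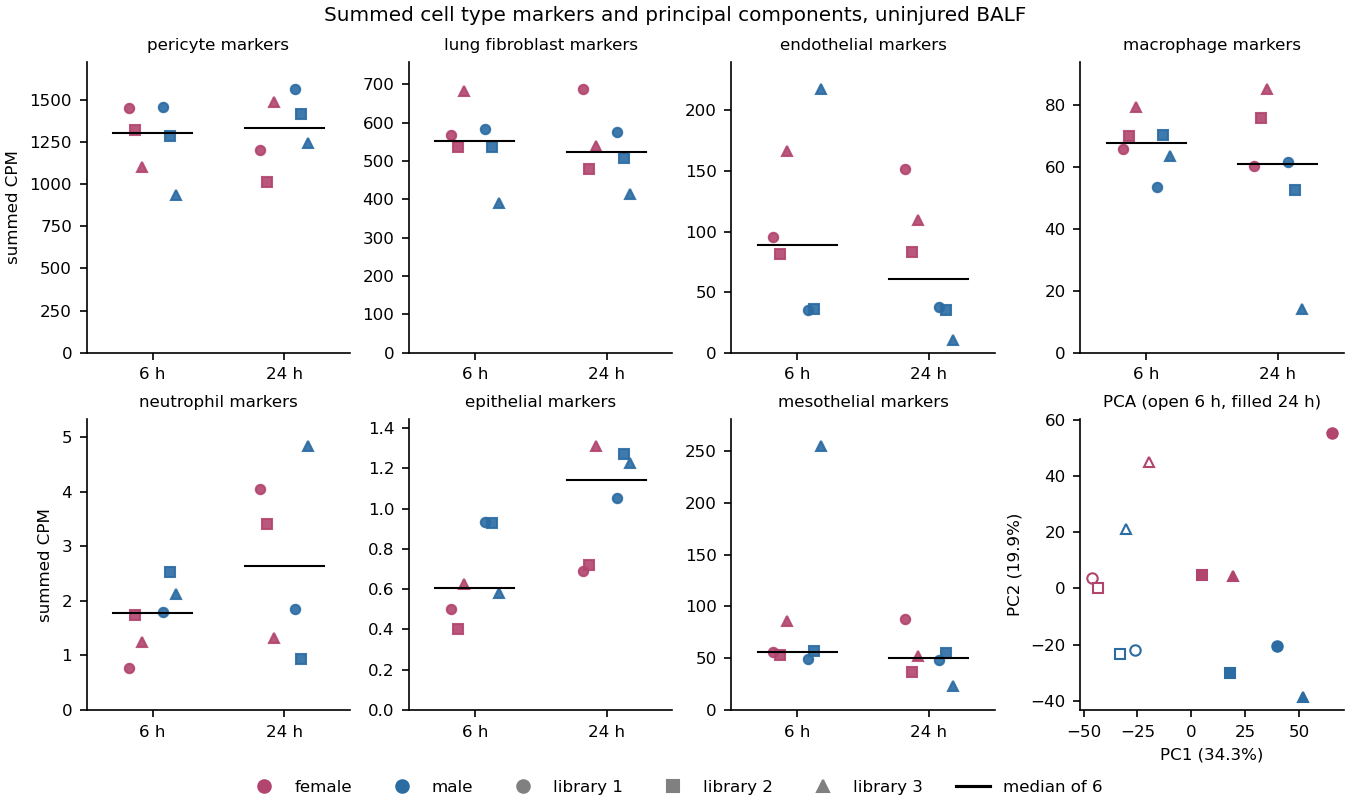
Summed CPM of the markers of 7 cell types in each library of uninjured BALF, and the first 2 principal components of the 12 libraries (lower right; open symbols 6 h, filled 24 h). Male 24 h library 3 has the lowest endothelial, macrophage and mesothelial sums of its time, and male 6 h library 3 the highest mesothelial sum.

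The same hours passed for cells in media, so the change there was set beside that in uninjured BALF. In media 556 genes rose (3.5%) and 529 fell (3.33%). The change itself differed between uninjured BALF and media for 315 genes, 112 of them higher in BALF (0.704%) and 203 lower (1.28%). With upper-quartile scaling the split was 147 to 153. Rarb, Rgs4, a regulator of G protein signals, Ahrr, the repressor of the aryl hydrocarbon receptor, Dhrs3 and Tppp, a tubulin-binding protein, had the largest upward differences among genes of at least 2 average log2 CPM. Rarb and Dhrs3 rose in BALF, and Rgs4 rose by 1.34 ± 0.37 in BALF and stood at -0.96 ± 0.35 in media, a difference of 2.30 ± 0.51 (edgeR adjusted p = 0.015). Ahrr fell in media, at -1.79 ± 0.39, and stood at 0.29 ± 0.38 in BALF, where it did not pass. Tppp changed by 1.00 ± 0.32 in BALF and lost that call without female 24 h library 2 or 3 (highest edgeR adjusted p = 0.058). On the downward side stood Nr4a3 (-3.48 ± 0.73), Nmnat2 (-2.64 ± 0.39), Il11 (-2.50 ± 0.57), Procr (-2.10 ± 0.53) and Pi15, a peptidase inhibitor (-1.97 ± 0.45). Of these only Il11 also passed in media, at -1.63 ± 0.42 against -4.13 ± 0.42 in BALF. Pi15 went from a median of 121 CPM (46.1 to 202) to 30.7 CPM (18.5 to 52.2) in BALF. With libraries 1 and 2 summed the difference between BALF and media passed for 3 genes, and without any library numbered 1 for 1.

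Against injured BALF the change over time differed for 37 genes (0.233%), 14 higher and 23 lower in uninjured BALF, and for 0 with libraries 1 and 2 summed (edgeR; 107 in DESeq2). Leaving out 1 library gave 7 (without uninjured male 24 h library 1) to 72 (without injured male 6 h library 3). Icam1, an adhesion molecule of leukocytes, changed by -0.30 ± 0.19 in uninjured BALF, where it did not pass, and by -2.06 ± 0.20 in injured BALF. Ccl9, a chemokine, and Nrg1 rose by 1.26 ± 0.27 and 0.82 ± 0.14 in uninjured BALF and stood at -0.52 ± 0.26 and -0.60 ± 0.14 in injured BALF. Nupr1, a stress-induced chromatin protein, and Flt1, a receptor of VEGF, did not pass in uninjured BALF (0.20 ± 0.23 and -0.41 ± 0.18) and stood at -1.28 ± 0.23 and -1.62 ± 0.18 in injured BALF. Procr, Nmnat2, Crem, a transcription factor of cAMP signalling, and Dgat1 fell in uninjured BALF, Crem by 0.93, and stood at 0.02 ± 0.37, -0.91 ± 0.26, 0.55 ± 0.16 and -0.03 ± 0.15 in injured BALF. Pmvk stood at -0.33 ± 0.22 in uninjured and 1.21 ± 0.23 in injured BALF, a difference of -1.54 ± 0.31 (edgeR adjusted p = 0.032).

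**Figure D5:**
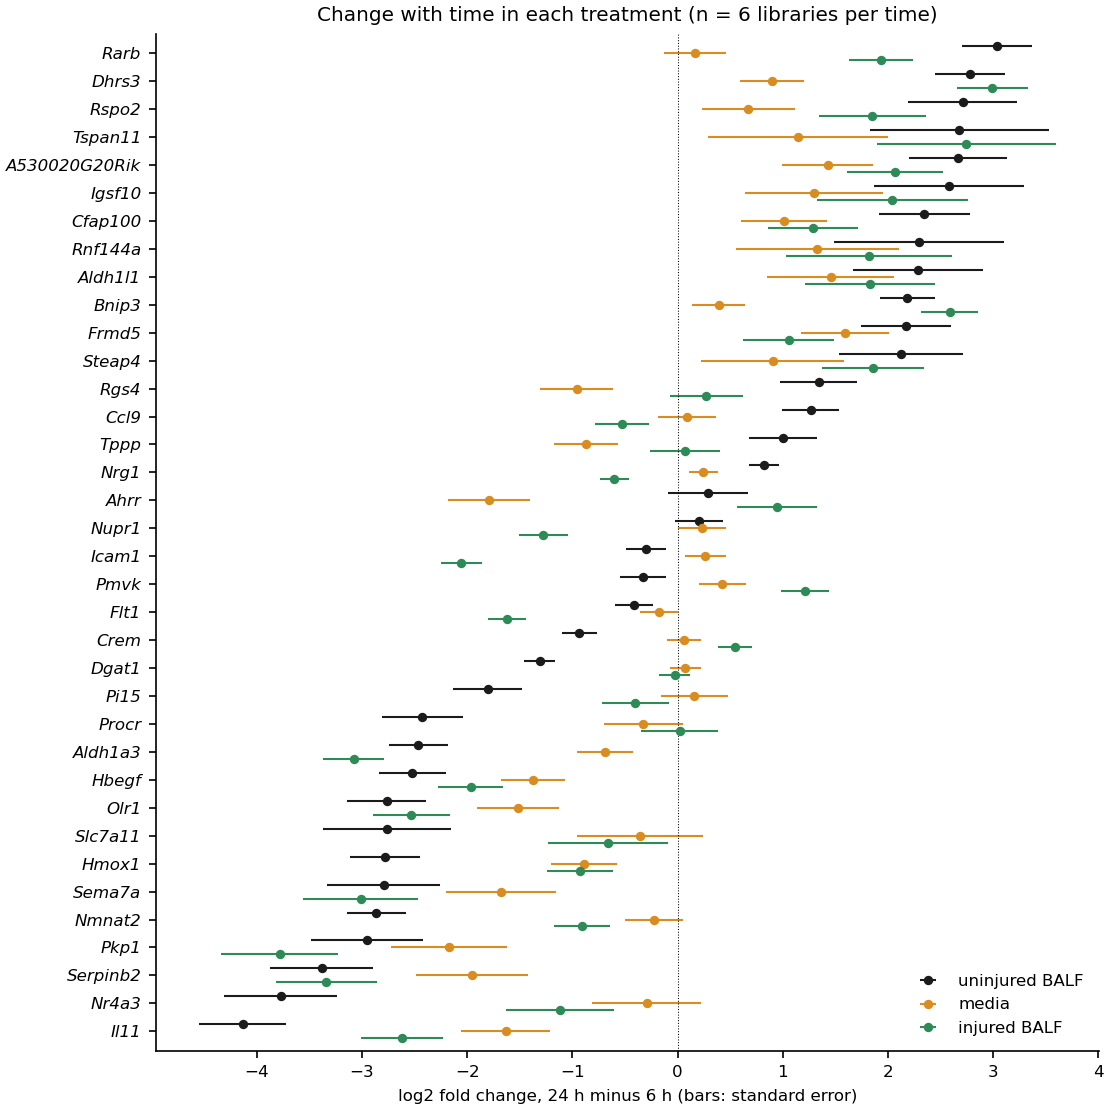
Log2 fold change from 6 to 24 h in uninjured BALF (black), media (orange) and injured BALF (green) for the genes of largest change in uninjured BALF and of largest difference between treatments, with standard errors as bars (n = 6 libraries per time and treatment). Rarb moves in both lavage fluids and stands near 0 in media, and Procr, at -2.43 in uninjured BALF, stands near 0 in both other treatments.

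The change differed between the sexes for 0 genes (0%) in edgeR's test and for 0 in DESeq2, with 211 genes at an unadjusted p under 0.05. Each tested by its own contrast in the fit of 36 libraries, the female cells gave 2277 calls and the male cells 1973. Ribosome biogenesis genes, for example, had Polr1b at -1.18 in female and -1.07 in male cells, and Rarb stood at 3.43 and 2.64. Other values lay further apart, as in Steap4 and Ankrd37 above. The list median was -0.24 in female and -0.98 in male cells for NRF2 targets, and 0.10 and -1.51 for endothelial markers. With 3 libraries per sex and time, a difference smaller than the spread between libraries was not detectable.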

How the data were processed

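RNA of cultured mouse lung cells was sequenced from a stranded mRNA kit, per the labels. The authors deposited 1 table of whole-number read counts per gene for 36 libraries. STAR 2.5.2b, RSEM 1.2.31, DESeq2 and GRCm38 are named in the submitters' processing notes, with no role given, so the deposited counts may be rounded estimates. Every column was matched to a library by its name. Of 48795 gene identifiers 48349 (99.1%) were matched to symbols, and the others held at most 0.051% of a library's counts.

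Counts were fitted with edgeR 4.0.16 (R 4.3.3; TMM, filterByExpr, quasi-likelihood test) on the 36 libraries together, each combination of treatment, sex and time being 1 of 12 groups, which left 24 residual degrees of freedom, and a common biological coefficient of variation of 22.5%. The contrast averaged the difference in female and in male cells, with Benjamini-Hochberg adjusted p under 0.05 over 15901 genes. Errors are standard errors, the log2 fold change divided by the root of F. The fit was tested on simulated data. Depth was 21509287 to 35991683 counts, so precision is set by the spread between 3 libraries per group rather than by counting, except in genes under about 1 CPM. Alternatives were DESeq2 1.42.0, other scalings, filters, thresholds and fits, a replicate block, summed libraries 1 and 2, and left-out libraries. The settings without 3 libraries at the ends of the second principal component, and without the 3 farthest from their own group, were added after the data were seen.

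The 32 gene lists (681 genes), the 9 marker lists and the comparison itself were chosen with earlier results of these data known. Genes were named by rule: the 12 largest changes each way at 2 or more average log2 CPM and in the same direction in both sexes, up to 4 called members of lowest p per list, a fixed set given whatever its result, and the 5 largest differences of change each way. Further genes are said to be named after their values were seen. Naming by low p or large change favours genes whose times do not overlap. Such gaps are described here, lend no support to a list, and were not counted over all genes. Some genes that these rules name are not reported here. Promoters are RefSeq sequences of GRCm38.p6. Within the 12 libraries of uninjured BALF, same-numbered libraries did not consistently deviate together (correlations of -0.37 to 0.31 in females and -0.09 to 0.10 in males). The numbers were therefore not used to pair them in the main fit, and fits with the number as a block are given among the alternatives.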

Additional observations from a re-analysis of the deposited data

Results flagged for a closer look

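In groups of 6 libraries of a time, with the sexes pooled, a library was noted where its gap to the nearest other exceeded Dixon's 95% critical share of the range. This held in 46 of 372 groups (12.4%). The 1 in 20 of that cut-off assumes normal values in independent groups. Unlogged CPM of genes from the same libraries do not meet this, so the share is a description and is not compared with chance. Female 24 h library 1 stood above the other 5 with 16.9 CPM of A530020G20Rik, 9.48 CPM of Ahrr, 31.8 CPM of Aldh1l1, 311 CPM of Bnip3, 198 CPM of Ddit4, 185 CPM of Egln1, 25.5 CPM of Frmd5, 113 CPM of Hspb8, 3.75 CPM of Il33, 214 CPM of Mt2, 133 CPM of Pfkfb3, 50.1 CPM of Rnf144a and 1425 CPM of Scd2. It stood below them with 948 CPM of Hspa5, 209.7 CPM of Hyou1, 25.4 CPM of Nob1 and 1.11 CPM of Tppp. Female 24 h library 2 stood above the other 5 with 421 CPM of Ccl2, 2.74 CPM of Cxcl2, 4.04 CPM of Cxcl3, 106 CPM of Il6, 112 CPM of Lif, 72.4 CPM of Mmp13 and 26.9 CPM of Serpinb2. Female 6 h library 3 stood above the other 5 with 672 CPM of Ccl2, 67.1 CPM of Cxcl1, 11.2 CPM of Cyp26b1, 80.6 CPM of Nfkbia, 32.7 CPM of Relb, 7.82 CPM of Rnf144a and 3025 CPM of Timp1. It stood below them with 17.0 CPM of Cry1. Male 24 h library 2 stood above the other 5 with 29.6 CPM of Aldh1a3, 11.5 CPM of Il11 and 12.9 CPM of Nr4a3. Male 6 h library 1 stood above the other 5 with 1.19 CPM of Angpt1. It stood below them with 89.4 CPM of Utp4. Male 6 h library 2 stood above the other 5 with 0.244 CPM of Foxj1. It stood below them with 9.13 CPM of Notch3. Male 6 h library 3 stood above the other 5 with 0.623 CPM of Il18, 56.7 CPM of Pfkfb3 and 255 CPM of mesothelial markers. It stood below them with 8.06 CPM of Bub1, 41.7 CPM of Creld2, 11.9 CPM of Ect2 and 67.0 CPM of Mki67.

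Some changes from 6 to 24 h differed between treatments by the test of the difference itself (edgeR, adjusted p under 0.05). In log2 units, uninjured BALF minus media, the difference was 2.08 for Ahrr, -0.99 for Crem, -1.38 for Dgat1, 1.88 for Dhrs3, -2.50 for Il11, -2.64 for Nmnat2, -3.48 for Nr4a3, -1.97 for Pi15, -2.10 for Procr, 2.87 for Rarb, 2.30 for Rgs4 and 1.88 for Tppp. In log2 units, uninjured BALF minus injured BALF, the difference was 1.79 for Ccl9, -1.48 for Crem, -1.28 for Dgat1, 1.21 for Flt1, 1.76 for Icam1, -1.95 for Nmnat2, 1.42 for Nrg1, 1.48 for Nupr1, -1.54 for Pmvk and -2.45 for Procr. With libraries 1 and 2 summed, 3 genes passed against media and 0 against injured BALF.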

How the results depend on the processing

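The count of 4864 genes changed from 6 to 24 h in uninjured BALF was 2277 for female and 1973 for male cells. Both came from contrasts in the fit of all 36 libraries. The count was 3043 at an adjusted p of 0.01 and 466 for a change over 1.5-fold (glmTreat). Without the 3 libraries at the ends of the second principal component it was 2914. It was 5204 in DESeq2, 4996 with upper-quartile scaling and 3275 with libraries 1 and 2 summed. Leaving out libraries gave 1934 (without replicate 1 in all groups) to 5111, and leaving out 1 library gave 3750 (without female 24 h library 1) to 5111. The 315 genes whose change differed between uninjured BALF and media were 638 in DESeq2, 157 with no low-count filter, 187 in a fit of the groups compared, 3 and 2 with libraries 1 and 2 summed (2 and 3 in female 24 h cells for the second value), 133 without the 4 libraries of other description numbers, 208 without the 3 libraries at the ends of the second principal component, and 1 to 454 on leaving out libraries. The 37 genes that differed from injured BALF were 107 in DESeq2, 76 without the 3 libraries farthest from their own group, 0 in both summed settings, and 0 to 236 on leaving out libraries. For the difference between the sexes leaving out libraries gave 0 to 8 genes, the 8 without replicate 3. The cause was not tested.

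With the replicate number as a block, the changes over time numbered 5625 in the fit of 36 libraries and 2993 in that of 12, the differences from media 545 and those from injured BALF 68. Only number 2 in each sex correlated best with its own number, which is a hint from the data and not from the design.

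Of 161 called genes that the naming rules gave, 139 kept the call without each single library in turn, and 161 passed in DESeq2. With libraries 1 and 2 summed, 23 did not pass, namely Angpt1, Angptl4, Cspg4, Cyp26b1, Ddx58, Errfi1, Fos, Hspa5, Il18, Il33, Il6, Mfap2, Mki67, Pcolce, Plod3, Rfc4, Rgs4, Rnf144a, Steap4, Synpo2, Tppp, Tspan11 and Vegfa. Without the 3 farthest from their own group 19 did not pass, among them Aldh1l1, Ccnb2, Emilin1, Igsf10, Lif, Mki67, Npm1 and Smad7. Cxcl1, not called, ran from -0.59 without replicate 1 to 1.05 (edgeR adjusted p = 0.024) without replicate 3. Depth limits genes under 1 CPM, such as Il18, Foxj1 and Scgb1a1.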
